A study of Homo sapiens with 4 samples.

Results

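The poly(A) sites of *MAP3K7*, *TAB1*, *TAB2* and *TAB3*, the genes of the TAK1 kinase complex, were examined in 2 esophageal squamous cell carcinoma (ESCC) lines with and without l-lactate. PAS-seq reads the 3′ ends of poly(A)-tailed RNA, so that a tag marks where a transcript was cleaved and the number of tags measures its level. The deposited tables group neighboring sites into poly(A) site clusters (PACs), each with its dominant site, the position with the most tags. A PAC was taken as a member when its dominant site lay within the same-strand GENCODE 44 span of 1 of the 4 genes. This gave 6 of 17627 PACs, of which *TAB2* and *MAP3K7* had 2 each and *TAB1* and *TAB3* had 1 each, and all 6 were listed in all 4 libraries.

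The lines were KYSE30 and TE-1, both established human ESCC lines. For each line there was 1 library of cells given l-lactate, at 20 mM for 24 h by the study's methods, and 1 library of control cells given PBS. The cell line field of the control samples names other lines (KYSE32 and TE-3), but the sample titles, like the study, name KYSE30 and TE-1, and the groups here follow the titles. Depth was between 7174991 and 10393799 tags per library, and the lowest listed value was 8 to 11 tags. With 1 library per condition in each line, a change within a line has no replicate check, and its intervals cover counting error only. Tests ran over both lines together, with line and treatment as terms, which leaves 1 residual degree of freedom that limma moderates across genes. Nothing in the labels says whether the libraries came from separate cultures. Of 10 squamous epithelial markers, 5 to 7 were listed per library when PACs up to 5 kb past the gene end were included. KRT5 and KRT14 were at 0 in all 4 libraries, KRT17 was at 0 in KYSE30, KRT6A and TP63 were at 0 in TE-1, and CDH1 was at 0 in the TE-1 control alone. None of 5 leukocyte markers was listed, and 1 or 2 of 7 fibroblast and endothelial markers were, with summed levels between 8.50 and 16.2 RPM (tags per 1000000 tags of the library).

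TAK1, encoded by *MAP3K7*, is a serine/threonine kinase that relays signals from interleukin-1, tumor necrosis factor, Toll-like and TGF-β receptors to the IκB kinases and to the MAP kinase cascades of JNK and p38. TAB1 binds the kinase and promotes its autophosphorylation. TAB2 and TAB3 are related adaptors whose zinc fingers bind lysine 63-linked ubiquitin chains and so bring TAK1 to activated receptor complexes. A kinase core associates with TAB1 and with either TAB2 or TAB3. The 3′ UTR, which alternative poly(A) sites shorten or lengthen, holds sites for microRNAs and RNA-binding proteins.

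All 6 PACs lay in the 3′ UTR of the canonical transcript of their gene, in the same exon as the stop codon. Their dominant sites lay in no other annotated gene on the same strand, readthrough genes left out. The stretches of 30 nt that end at the dominant sites are printed here because they hold the poly(A) signals of the sites that the results compare. For *TAB3* the stretches at the edges of the PAC are added. These edges are quantile positions of its tags in the KYSE30 control, not dominant sites. They were read 5′ to 3′ on the transcript strand from GRCh38. Capitals mark the AATAAA or ATTAAA nearest the site, these being the main signal hexamers. The stretch at the *TAB3* downstream edge also holds an overlapping AATAAA that is not fully in capitals. The *TAB1* stretch ends 2 nt before its site, so that the signal is in it.
TAB3 dominant site in both controls: taaagcagcaaaaacttATTAAAtcttgta
TAB3 dominant site in both l-lactate libraries: cagtttcttcATTAAAgcagcaaaaactta
TAB3 downstream edge: gcaaaataAATAAActaaaagcaaacacta
TAB3 upstream edge: cagAATAAAttgggcactgtctgtgttgca
TAB2 proximal site: caatgccttaaAATAAAaaagcattaatga
TAB2 distal site: atttataaaaATTAAAaaacttatattcta
MAP3K7 proximal site: taaatgaaATTAAAaggcaaaagaacatga
MAP3K7 distal site: gtttttAATAAAattcagattcctattcta
TAB1 site: AATAAAtggtggcattacacattgtgatat

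*TAB3* (ENSG00000157625.16, minus strand, chrX:30827442-30975084) had a single PAC at chrX:30827442-30827939, a span of 498 nt in exon 11 of the canonical transcript that reaches the annotated gene end. *TAB2* (ENSG00000055208.20, plus strand, chr6:149218641-149411613) had a proximal PAC at chr6:149410547-149410561, with its dominant site 828 nt past the stop codon, and a distal PAC at chr6:149411393-149411613, 1887 nt past it, both in exon 7. *MAP3K7* (ENSG00000135341.19, minus strand, chr6:90513573-90587086) had a proximal PAC at chr6:90515685-90515781, 807 nt past the stop codon, and a distal PAC at chr6:90513573-90513581, 2920 nt past it, both in exon 17. *TAB1* (ENSG00000100324.14, plus strand, chr22:39399778-39437060) had its PAC at chr22:39431866-39431881, 1659 nt past the stop codon in exon 11. The 50 nt before the dominant site held AATAAA or ATTAAA, searched on the transcript strand, in 6 of 6 member PACs, against 83.1% of all PACs. From the end of the signal to the site was 13 nt in proximal *TAB2*, 14 nt in distal *TAB2*, 16 nt in proximal *MAP3K7*, 18 nt in distal *MAP3K7* and 26 nt in *TAB1*. TGTA, the motif bound by the cleavage factor NUDT21, was in the 100 nt before the dominant site of all members except proximal *TAB2*, whose window held none, and 57.0% of all PACs held it.

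Of the 4 genes, *TAB2* had the largest difference between the lines. In KYSE30 it was at 140.2 RPM in the control and 148.4 RPM with l-lactate, and in TE-1 at 32.8 RPM and 35.7 RPM. Both KYSE30 libraries were above both TE-1 libraries. The fitted difference, TE-1 minus KYSE30, was -2.04 on the scale of log2(RPM + 1) (SE 0.084, adjusted p = 1.17e-06 by limma). As a ratio of RPM + 1 this is 4.13-fold, higher in KYSE30. Both PACs of the gene were higher in both KYSE30 libraries than in both TE-1 libraries. The distal PAC was at 128.2 and 134.5 RPM in KYSE30 and at 30.6 and 32.1 RPM in TE-1, control first. The proximal PAC was at 11.99 and 13.9 RPM in KYSE30 and at 2.21 and 3.54 RPM in TE-1. In bulk cultures, fewer cells that express a gene and less RNA per cell cannot be told apart.

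*MAP3K7*, the kinase itself, was also higher in KYSE30. It was at 49.96 RPM in the KYSE30 control and 47.7 RPM with l-lactate, against 31.2 RPM and 31.6 RPM in TE-1, with no overlap of the lines. The difference was -0.62 (SE 0.10, adjusted p = 0.00121 by limma), or 1.54-fold as a ratio of RPM + 1, higher in KYSE30. The lines differed in many genes: 7743 of 10612 genes tested passed the same threshold, an adjusted p of at most 0.05, which is 73% of them, with 37.5% lower and 35.5% higher in TE-1. A log2 difference of -2 or lower with that adjusted p, as *TAB2* had, was found in 10.6% of genes. The share of all genes whose lines did not overlap, as in *MAP3K7* and *TAB2*, was not counted.

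*TAB3* and *TAB1* did not pass the test between the lines. *TAB3* was at 44.2 RPM in the KYSE30 control, 36.2 RPM in KYSE30 with l-lactate, 35.4 RPM in the TE-1 control and 38.8 RPM in TE-1 with l-lactate, so that the lines overlapped. Its log2 difference was -0.11 (95% interval -0.41 to 0.20, adjusted p = 0.481 by limma). *TAB1* was at 23.4, 19.7, 24.2 and 24.8 RPM in the same order. Both TE-1 values of *TAB1* were above both KYSE30 values, an order whose share over all genes was not counted. The difference was 0.18 (-0.14 to 0.51, adjusted p = 0.266 by limma). These intervals hold differences of up to 0.41 and 0.51 on the log2 scale, so equal levels were not shown.

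**Figure D1:**
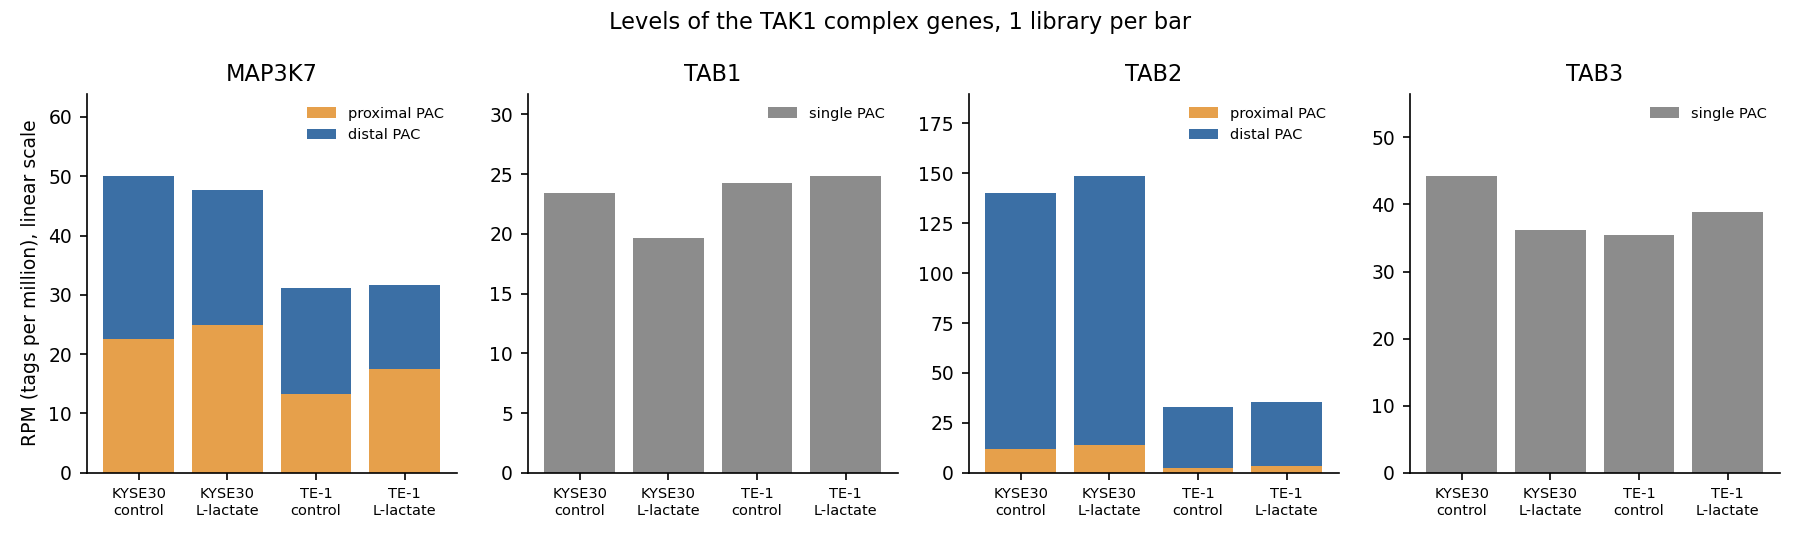
Tags per 1000000 tags (RPM, linear y axis from 0, a scale of its own for each gene) of the 4 genes, 1 bar per library, with the proximal and distal PACs stacked where a gene has 2. TAB2 stands at 140.2 and 148.4 RPM in KYSE30 and at 32.8 and 35.7 RPM in TE-1, whereas TAB3 lies between 35.4 and 44.2 RPM in all 4 libraries.

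The ratio of tags of the 2 ubiquitin-binding adaptors was compared between the libraries. *TAB2* gave 3.17 tags for each *TAB3* tag in the KYSE30 control (95% counting interval 2.80 to 3.59) and 4.10 with l-lactate (3.58 to 4.69). In TE-1 the ratio was 0.927 in the control (0.7998 to 1.07) and 0.918 with l-lactate (0.785 to 1.07). In KYSE30, *TAB2* made up 54.4% and 58.9% of the summed RPM of the 4 genes, and in TE-1 26.5% and 27.2%, control first. *TAB3* made up 17.1% and 14.4% in KYSE30 and 28.6% and 29.7% in TE-1.

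Other genes near *TAB2* and *MAP3K7*, both on chromosome 6, were also lower in TE-1. Within 5 Mb of *TAB2*, 13 of 21 genes tested were called lower in TE-1 and 3 higher, with a median log2 difference of -1.40, and 8 of them had a lower difference than *TAB2*. Within 5 Mb of *MAP3K7*, 10 of 17 were called lower and 2 higher, with a median of -0.92, and 9 had a lower difference than *MAP3K7*. Around *TAB1* the median over 99 genes was 0.20, with 34 lower and 42 higher. Only 4 genes near *TAB3* were tested, with 1 called lower and 3 higher. Their median was 3.27, whereas *TAB3* itself was at -0.11. The median over all genes was -0.03, with 37.5% called lower and 35.5% higher. The part of the chromosome region in the member differences was not tested.

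With l-lactate, no member passed the test. The log2 difference, l-lactate minus control over both lines, was -0.02 for *MAP3K7* (95% interval -0.27 to 0.22, adjusted p = 0.969 by limma) and 0.10 for *TAB2* (-0.10 to 0.30, adjusted p = 0.790 by limma). It was -0.11 for *TAB1* (-0.43 to 0.22, adjusted p = 0.878 by limma) and -0.07 for *TAB3* (-0.38 to 0.23, adjusted p = 0.913 by limma). None of the 10612 genes tested passed by limma (0%), and 920 had an unadjusted p of at most 0.05. Other settings called between 0 and 156 genes, and limma pooled the variance over genes to different degrees between them.

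The change of *TAB3* with l-lactate had opposite signs in the 2 lines. In KYSE30 it had 328 tags in the control and 260 with l-lactate, a log2 ratio of RPM of -0.29 with a counting interval of -0.52 to -0.05. In TE-1 it had 368 and 329, the l-lactate library being the shallower, a log2 ratio of 0.13 (-0.08 to 0.35). Among 4567 genes of at least 20 RPM in all 4 libraries, 3.07% had a KYSE30 ratio as low as that of *TAB3* or lower. *TAB1* had log2 ratios of -0.25 in KYSE30 (-0.57 to 0.07) and 0.03 in TE-1 (-0.23 to 0.30). *MAP3K7* had -0.07 (-0.28 to 0.14) and 0.02 (-0.21 to 0.25), and *TAB2* had 0.08 (-0.04 to 0.21) and 0.12 (-0.10 to 0.34). Apart from *TAB3* in KYSE30, each of these counting intervals includes 0.

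*MAP3K7* was the member whose 3′ ends were split most evenly between a proximal and a distal PAC. The distal PAC gave 204 of 371 tags in the KYSE30 control, or 55.0% (Wilson 95% interval 49.9% to 59.97%), and 163 of 342 with l-lactate, or 47.7% (42.4% to 53.0%). In TE-1 it gave 186 of 324 tags in the control, or 57.4% (52.0% to 62.7%), and 120 of 268 with l-lactate, or 44.8% (38.9% to 50.8%). Both l-lactate libraries were below both controls, and the lines did not separate. How many of all genes have such an order was not counted. The change was -7.33 percentage points in KYSE30, with a counting interval from -14.6 that just reaches 0, and -12.6 points in TE-1 (-20.5 to -4.54). The level of the distal PAC went from 27.5 to 22.7 RPM in KYSE30 and from 17.9 to 14.2 RPM in TE-1, while the proximal PAC went from 22.5 to 24.9 RPM and from 13.3 to 17.5 RPM.

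This change did not pass the test over both lines. The fitted difference of the distal *MAP3K7* PAC relative to the proximal PAC was -0.55 on the log2 scale, with an unadjusted p of 0.044 and an adjusted p of 0.567 by diffSplice in limma. Over all genes 12 of 8215 PACs passed, or 0.146%, and between 0 and 57 in other settings. A distal share lower by at least 5 percentage points was found in 18.5% of 2012 genes in KYSE30 and in 15.1% of 2041 genes in TE-1, and in both lines in 6.91% of 1490 genes, while 12.2% and 19.3% had a share higher by that much. A share lower by at least 10 points was found in 6.26% of genes in KYSE30 and in 5.19% in TE-1, where *MAP3K7* passed that size, and a share higher by as much in 3.98% and 6.47%. The distal *MAP3K7* site, shown above, carries AATAAA and the proximal site ATTAAA, and both windows of 100 nt held TGTA. Between the lines the relative usage of the distal PAC differed by -0.01 (adjusted p = 0.962 by diffSplice in limma), where 33.6% of PACs passed.

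*TAB2* ended mostly at its distal PAC. The share was 91.5% in the KYSE30 control (89.6% to 93.0%), 90.6% with l-lactate (88.7% to 92.2%), 93.3% in the TE-1 control (90.1% to 95.5%) and 90.1% with l-lactate (86.2% to 93.0%). These 4 intervals overlap. The change with l-lactate was -0.84 percentage points in KYSE30 (-3.29 to 1.62) and -3.19 in TE-1 (-7.66 to 1.10). Neither l-lactate (adjusted p = 0.661 by diffSplice in limma) nor line (-0.17 on the log2 scale, adjusted p = 0.557) passed the test. The line result depends on the setting: with a pseudocount of 5 RPM it passed (-0.71, adjusted p = 0.0106 by diffSplice in limma), and with precision weights on the tags its sign turned (0.11). The proximal PAC in TE-1 rested on 23 and 30 tags.

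**Figure D2:**
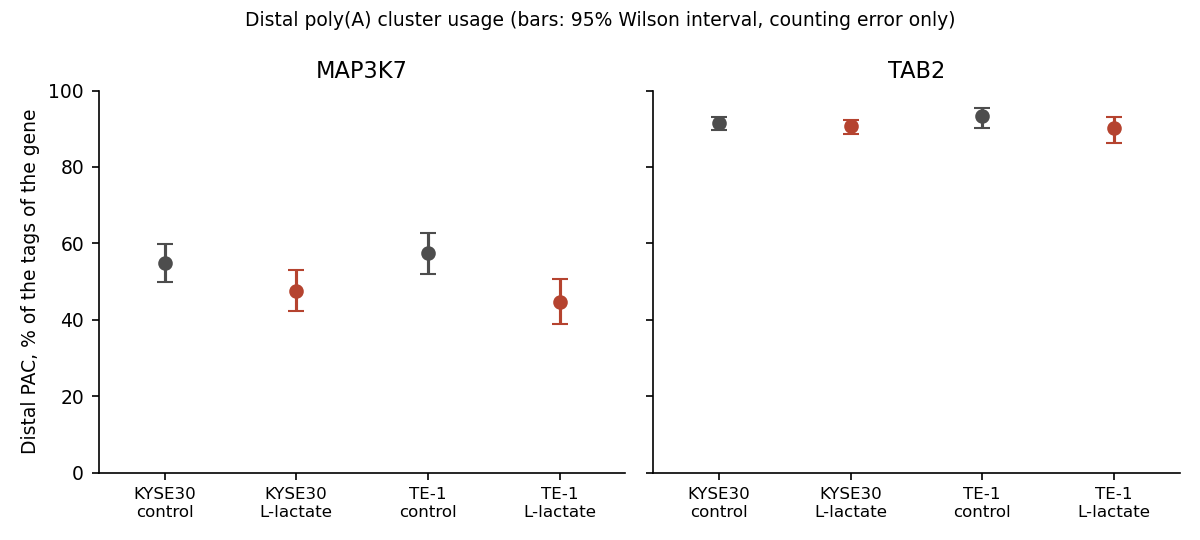
Share of the tags of MAP3K7 and TAB2 in the distal PAC (y axis, 0 to 100%), 1 point per library, gray for control and red for l-lactate, with Wilson 95% intervals that cover counting error only. The MAP3K7 share is 55.0% and 57.4% in the controls and 47.7% and 44.8% with l-lactate, and the TAB2 share lies between 90.1% and 93.3%.

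The *TAB3* PAC was wide, and no single site led it. The study's methods join PACs within 500 nt of each other when they exceed a minimum level in all samples, and the deposited tables list the result. The width between the 10% and 90% quantile positions of its tags was 490, 490, 487 and 490 nt in the KYSE30 control, KYSE30 with l-lactate, the TE-1 control and TE-1 with l-lactate, against a median of 6 nt over the 12344 PACs listed in all 4 libraries. The dominant site was taken in each library separately. The dominant site held 60 of 328 tags, or 18.3% (14.5% to 22.8%), in the KYSE30 control and 48 of 260, or 18.5% (14.2% to 23.6%), with l-lactate. In TE-1 it held 82 of 368, or 22.3% (18.3% to 26.8%), in the control and 52 of 329, or 15.8% (12.3% to 20.1%), with l-lactate. The mean, 18.7%, was as low or lower in 9 of 12344 PACs, *TAB3* among them, and the median PAC had 72.9%. Of the 328 PACs at least 400 nt wide *TAB3* had the lowest mean share, and their median was 47.8%.

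The other member PACs were narrower than the *TAB3* PAC and had a higher share at the dominant site. The mean dominant share was 83.8% in distal *MAP3K7*, 76.8% in *TAB1*, 64.6% in proximal *MAP3K7*, 56.4% in distal *TAB2* and 40.7% in proximal *TAB2*. Their widths were 9, 16, 92.5, 97 and 14 nt. Not all were sharp beside the 12344 PACs listed in all 4 libraries. A dominant share as low as that of proximal *TAB2* or lower was found in 7.16% of them. A width as large or larger was found in 12.5% for distal *TAB2* and in 12.8% for proximal *MAP3K7*.

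**Figure D3:**
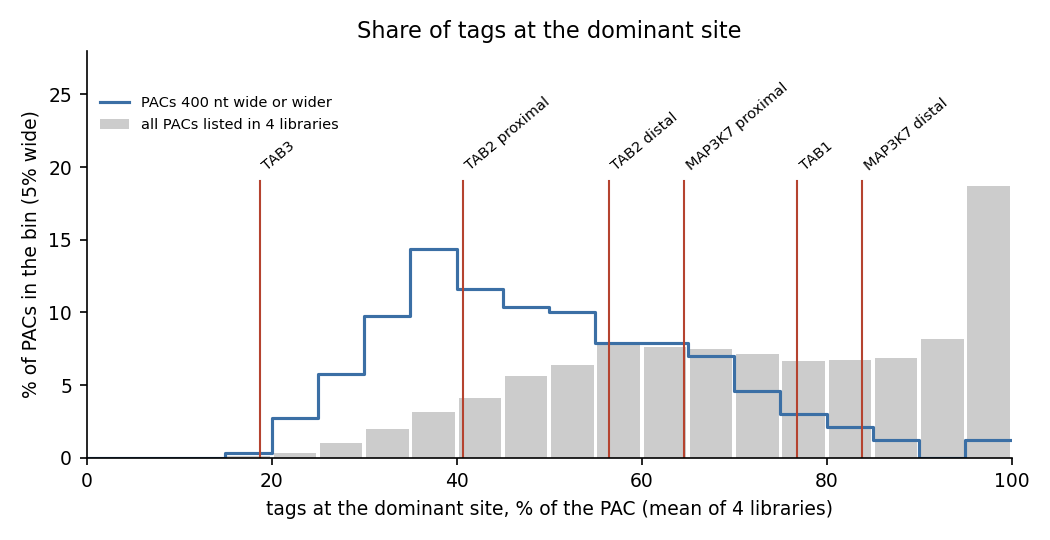
Distribution of the mean share of tags at the dominant site (x axis, % of the PAC, bins of 5%) over the 12344 PACs listed in all 4 libraries (gray bars) and the 328 at least 400 nt wide (blue line), as % of PACs in each set (y axis). Red lines mark the 6 member PACs, and TAB3 at 18.7% lies at the low end of both distributions.

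The stretch that *TAB3* transcripts end in holds several signals. The 548 nt from 50 nt before the PAC to its end contained AATAAA 3 times, of which 2 overlap, ATTAAA 2 times and TGTA 7 times. The lower quantile position was the gene end itself, 30827442, in all 4 libraries, and the upper was 30827931 in 3 of them and 30827928 in the TE-1 control. An AATAAA ended 16 nt before the downstream edge and another 21 nt before the upstream edge, as printed above. Only the dominant site of a PAC has its own tag count in the tables, so the split of the remaining *TAB3* tags was not analysed here.

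The dominant *TAB3* site was 30827609 in both controls and 30827621, 12 nt upstream, in both l-lactate libraries. The control site lies 7 nt past the end of an ATTAAA and 26 nt past the end of an earlier ATTAAA. The l-lactate site lies 14 nt past the end of that same earlier ATTAAA. The move was the same in both lines, but at 12 nt it was shorter than the 24 nt within which the study joins sites. A dominant site at a different position with l-lactate was found in 5.03% of PACs in KYSE30 and 4.51% in TE-1, upstream in 2.37% and 2.09%, and a move between the same positions in both lines in 43 of 8909 PACs (0.483%). Among 173 PACs with a mean dominant share of at most 30%, as *TAB3* had, the site moved in 38.2% in KYSE30 and 31.8% in TE-1, and between the same positions in both lines in 5.78%. The share at the dominant site of each library was also compared, l-lactate minus control. It differed by 0.17 percentage points in KYSE30 (-6.05 to 6.58) and by -6.48 points in TE-1 (-12.2 to -0.61). This compares different bases, each chosen as the position with the most tags, so it does not give the change at a single site. The intervals cover counting error only and not that choice.

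**Figure D4:**
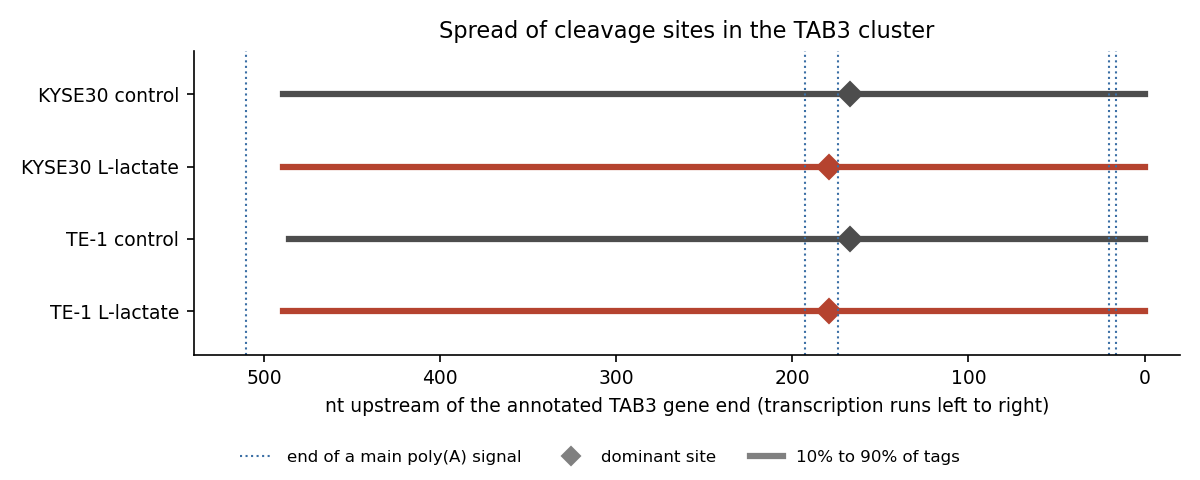
Positions in the TAB3 PAC by library, in nt upstream of the annotated gene end (x axis). Diamonds are the dominant sites, 167 nt upstream in the controls (gray) and 179 nt with l-lactate (red), horizontal lines run between the 10% and 90% quantile positions of the tags, and dotted lines are the ends of the main poly(A) signals.

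No member site moved past 24 nt. Of 6 member PACs above 5 RPM in both KYSE30 libraries and 5 in TE-1, 0 moved that far, against 1.43% and 1.24% of all PACs. The dominant sites of distal *TAB2*, *TAB1* and both *MAP3K7* PACs were at the same base in all 4 libraries. In proximal *TAB2* the site was 149410547 in 3 libraries and 149410557 in TE-1 with l-lactate, where it rested on 11 tags.

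Other genes of the TAK1 pathway were taken from 6 lists with 89 genes, of which 58 could be tested. Between the lines 18 were higher in TE-1 and 23 lower, which is 70.7% of those tested, beside 73% of all genes. Over all genes 35.5% were called higher and 37.5% lower, with a median log2 difference of -0.03, the background for each list below. The lists were not tested as sets. With l-lactate 0 of 58 passed by limma, the lowest adjusted p being 0.480. An unadjusted p of at most 0.05 was found in 8 of the 58, beside 920 of 10612 over all genes. Including PACs up to 5 kb past the gene end, 63 could be tested, with 20 higher and 25 lower between the lines and 0 with l-lactate.

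Of 12 receptors and adaptors upstream of TAK1 that could be tested, 5 were higher in TE-1 and 4 lower, with a median log2 difference of -0.12. *TRAF5*, a TNF receptor-associated adaptor, was not listed in KYSE30 and was at 18.0 and 18.5 RPM in TE-1. *IL1RAP*, the co-receptor of the interleukin-1 receptor, was at 8.35 and 7.39 RPM in KYSE30 and was not listed in TE-1. *TRADD*, the death domain adaptor of TNF receptor 1, was at 39.3 and 31.2 RPM in KYSE30 and at 15.9 and 15.6 RPM in TE-1, a log2 difference of -1.11 (adjusted p = 0.000252 by limma). Of 9 ubiquitin ligases and conjugating factors, 2 were higher and 5 lower, with a median of -0.29. The HECT ligase *ITCH* was at 36.2 and 34.8 RPM in KYSE30 and 15.1 and 10.04 RPM in TE-1, and *RNF31*, a subunit of the linear ubiquitin ligase, had a log2 difference of -0.58. *BIRC3*, which encodes the ligase cIAP2, was higher in TE-1, at 6.74 and 6.73 RPM against 1.48 and 1.95 RPM.

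Among 11 downstream kinases 4 were higher and 4 lower, with a median of 0.03. *MAPK13*, which encodes p38δ, was at 132.8 and 138.0 RPM in KYSE30 and at 4.52 and 6.61 RPM in TE-1, a log2 difference of -4.39 (adjusted p = 4.56e-07 by limma). *MAP2K6*, a kinase that activates p38, went the other way, with 4.71 and 5.30 RPM in KYSE30 and 20.8 and 23.4 RPM in TE-1. *NLK*, a kinase downstream of TAK1 in Wnt signaling, was not listed in KYSE30 and was at 4.81 and 3.66 RPM in TE-1.

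Of 10 NF-κB and AP-1 factors, 3 were higher and 5 lower in TE-1, with a median of -0.18. *FOS* was at 380.2 and 288.1 RPM in KYSE30 and at 45.4 and 40.7 RPM in TE-1. *NFKBIA*, the inhibitor IκBα, and *JUNB* had log2 differences of -1.21 and -1.11. Of 12 negative regulators, 2 were higher and 4 lower, with a median of -0.15. The deubiquitinase gene *OTULIN* was at 5.79 and 4.599 RPM in KYSE30 and 28.96 and 29.3 RPM in TE-1. *TRIM38*, a ligase gene whose product promotes loss of TAB2 and TAB3 protein, was at 39.9 and 36.1 RPM in KYSE30 and at 8.95 and 9.21 RPM in TE-1, and the phosphatase gene *PPM1A* differed by -1.35. Of 16 inducible targets only 4 could be tested: *ICAM1* was not listed in KYSE30 and was at 20.7 and 20.2 RPM in TE-1, *IER3* had a log2 difference of -1.23 and *SOD2* of 0.66, and the other was not called.

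**Figure D5:**
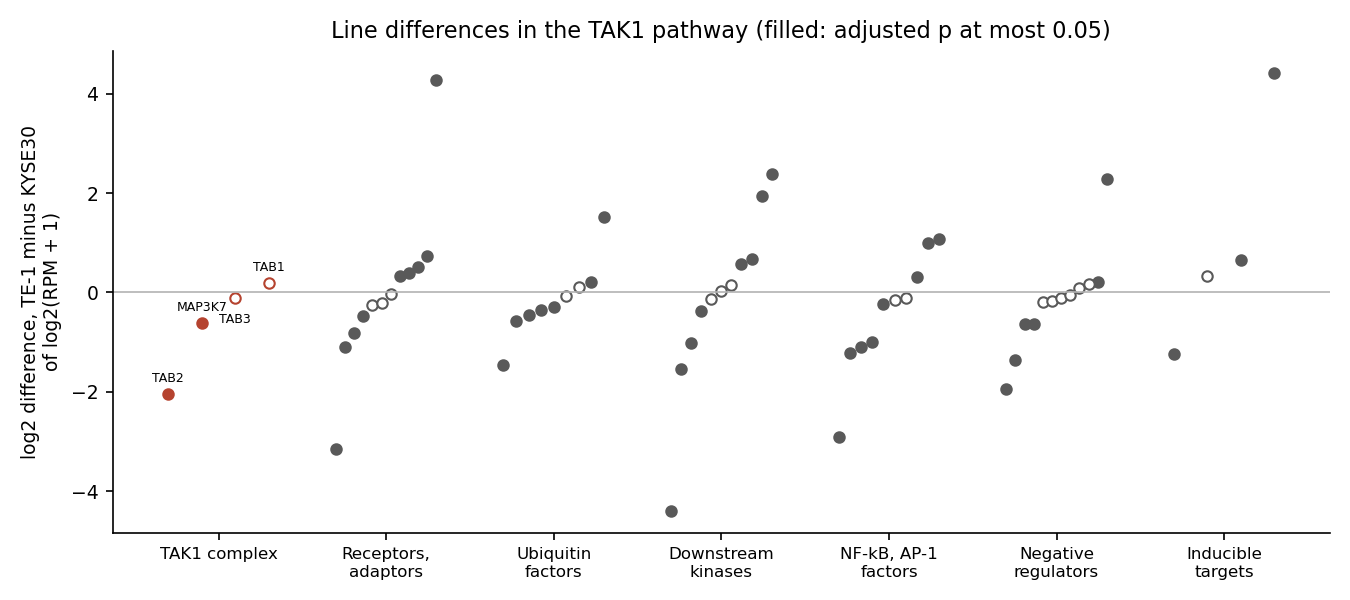
Fitted difference of log2(RPM + 1), TE-1 minus KYSE30 (y axis), for the 4 TAK1 complex genes (red) and the 58 tested genes of the 6 pathway lists (gray), 1 point per gene, filled where the adjusted p was at most 0.05. TAB2 at -2.04 and MAP3K7 at -0.62 are filled, TAB3 and TAB1 are open near 0, and each list has genes on both sides of 0. For genes not listed in a line the plotted difference depends on the pseudocount.

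The genes most like each member over the 4 libraries were found from the centered log2(RPM + 1) values, by the smallest of the maximum differences, among 8798 protein-coding genes of at least 5 RPM on average. With 4 libraries many genes lie close. Within 0.1 of *TAB2* lay 16 genes, led by *ATPAF2*, *LGALS3BP* and *UBTD1*, and within 0.1 of *TAB3* lay 96, led by *ZNF28*, *OSER1* and *SYMPK*. *MAP3K7* had 187, led by *PPM1B*, a phosphatase gene also in the list of negative regulators, *PTPRF* and *TTLL4*. *TAB1* had 123, led by *APP*, *TMEM18* and *DCAF8*.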

How the data were processed

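PAS-seq was done on 4 libraries, 1 per condition in each of KYSE30 and TE-1. According to the study's methods, reads were aligned to GRCh38 with HISAT2 and sites were called with CAGEr. Sites under 1 TPM were left out, sites within 24 nt were clustered, and clusters above 5 TPM in all samples within 500 nt were joined. The RPM values, deposited by the authors under the name TPM, are tags per 1000000 tags of a library, with no division by length. Every value under 1000 RPM was a whole multiple of a single step per library, within 0.00055 RPM, which gave the depth and the tags.

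PACs were given to genes by the same-strand GENCODE 44 span. A PAC not listed in a library counted as 0, and PACs just past an annotated gene end are missed. Gene levels were tested with limma 3.58.1 (R 4.3.3, trend) on log2(summed RPM + 1) over 10612 genes with a mean of at least 2 RPM, with terms for line and treatment. PAC usage was tested with diffSplice over 8215 PACs of 3458 genes with a mean of at least 1 RPM per PAC. Adjustment was Benjamini-Hochberg over all features, and calls were made at 0.05. Intervals within a line are Wilson or built from Wilson limits. The fits were also run on simulated data in which l-lactate changes were the same in both lines. No result here rests on that run. Distal share was compared in genes with at least 2 PACs above 5 RPM in a library of the line. Tables were handled with pandas 2.3.3 and NumPy 2.4.6 in Python 3.11.15, intervals with SciPy 1.17.1 and figures with matplotlib 3.10.9. The members and lists were chosen with earlier results of these data known. Named pathway genes are up to 3 called genes per list and comparison with the largest absolute difference, and for each member the 3 genes most like it are named. Squamous, leukocyte, and fibroblast and endothelial marker lists were checked. The shifting score of the study needs the tags at each site and was not analysed here. Alternatives changed the pseudocount, the scaling, the filter on low values, the gene assignment, the position within a PAC and the signal window.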

Additional observations from a re-analysis of the deposited data

Results flagged for a closer look

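In 3 of the 4 genes the change with l-lactate had opposite signs in the 2 lines, in single libraries, and the difference between the lines was not tested. On the log2 scale of the RPM ratio, *TAB3* had -0.29 in KYSE30 and 0.13 in TE-1, *TAB1* had -0.25 and 0.032, and *MAP3K7* had -0.068 and 0.022. Opposite signs were found in 43% of 4567 genes of at least 20 RPM in all 4 libraries, so they are common in these data.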

How the results depend on the processing

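The 8 gene-level differences of the members kept their direction and their side of the threshold in all 64 alternative values. With no filter, a mean of at least 10 RPM, PACs up to 5 kb past the gene end or only PACs listed in all 4 libraries, the member levels stay as they are. Under these settings the direction could not change, and only the adjusted p could. *TAB2* ranged from -2.08 to -1.93 and *MAP3K7* from -0.64 to -0.56 between the lines. The distal *TAB2* PAC, at -0.17 between the lines, passed with a pseudocount of 5 RPM (-0.71, adjusted p = 0.0106 by diffSplice in limma, range over alternatives 0.0106 to 0.930) and changed sign with precision weights on the tags (0.11). These weights were added after seeing the data. The cause was not tested. The *MAP3K7* distal usage with l-lactate ranged from -0.57 to -0.45, with adjusted p between 0.250 and 0.707. The count of member sites moved past 24 nt was 0 in both lines with each of the 3 other positions within a PAC, and 6 of 6 members kept a signal in a window of 40 nt. The alternatives for the shares could not change them, since all member PACs lie in a 3′ UTR and are listed in all 4 libraries, nor could further signal forms lower a count of 6 of 6.

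The number of genes called with l-lactate, 0 as reported, was 6 with a pseudocount of 0.5 RPM, 100 with 5 RPM, 10 with TMM scaling, 10 with a mean of at least 10 RPM, 6 with PACs up to 5 kb past the gene end, 156 with only PACs listed in all 4 libraries, 7 with precision weights and 0 with no filter. The number of PACs with changed usage, 12 as reported, was 33, 0, 3, 0 and 57 with a pseudocount of 0.5 RPM, 5 RPM, all listed PACs, only PACs listed in all 4 libraries and precision weights. No member was among the gene calls. In the gene-level fits the weight that limma gave to the variance pooled over genes also differed between settings. Its prior degrees of freedom were 6.09 as reported, 37.7 with a pseudocount of 5 RPM and infinite with only PACs listed in all 4 libraries. The part of this weight in the counts was not tested. Count models on the tags, planned for gene level and PAC usage, were not run. No replicate could be left out, since each condition of a line has 1 library, and the reported fits already pair the libraries by line. Depth limits the proximal *TAB2* PAC most, at 23 to 100 tags.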
